A study of Mus musculus with 6 samples.

Results

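The genes described here encode splicing factors, heterogeneous nuclear ribonucleoproteins (hnRNPs) and a few of their partners. They were chosen by a rule on gene names in a table of eCLIP peaks, with earlier results of these data known. The rule took the Srsf, Tra2, Srrm, Luc7l, Hnrnp, Sf3a, Sf3b, U2af, Prpf and numbered Rbm genes, with Son, Cdk11b and Ythdc1. The rule found 87 genes with 381 peaks, out of 10818 gene names and 55449 peaks in the table. RefSeq holds 106 protein-coding genes whose symbols match the rule, of which 86 had a peak. The remaining member, Rbm8a2, is a pseudogene in RefSeq. The 20 matching genes without a peak included Srsf1, Srsf12, Srrm3, Hnrnpa2b1, Rbm8a, Prpf4b and Sf3b5. Some Rbm genes carry the name of a protein domain and are not known splicing factors, so they are described as a family of their own.

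Splicing removes introns from pre-mRNA on the spliceosome, a machine built from small nuclear ribonucleoproteins (snRNPs). SR proteins, named for their arginine and serine repeats, mostly bind exons and promote their use, while hnRNPs coat nuclear RNA and often oppose them. Many of these genes regulate their own transcripts and each other's through alternative exons or introns that lead to mRNA decay. ZFP36L2 is a zinc finger protein known to bind AU-rich stretches of mRNA and to promote decay of the transcripts it binds.

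The cells were MLTC-1, a mouse Leydig tumour cell line, and every library came from cells exposed to ultraviolet light (254 nm, 400 mJ per cm2) to crosslink protein to RNA. An antibody to ZFP36L2 gave 2 immunoprecipitation (IP) libraries with 2 inputs, and rabbit IgG, the control antibody, gave 1 IP library with 1 input. No genotype, drug or time differed between groups. The deposited table compares ZFP36L2 with IgG peak by peak and holds no values of single libraries, so the depth, the spread between libraries and the error of each fold change are unknown. With 1 IgG IP library, the control antibody and that library cannot be told apart. A peak is called enriched here where the deposited adjusted p is under 0.05 and log2 fold change at least 1, and depleted where that p goes with -1 or lower. Depleted means lower with ZFP36L2 than with IgG.

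Markers of the labelled cell type were checked in the same table. Peaks were listed for 7 of 10 Leydig markers, while Cyp17a1, Hsd3b1 and Insl3 had none. All 15 markers of cardiac muscle had peaks, 848 in total, of which 566 lay in Ttn, the giant sarcomere protein titin. Peaks were also found for 3 of 7 Sertoli and 5 of 5 macrophage markers. The part of these transcripts in the results below was not tested.

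Splicing factor and hnRNP genes carried 27 enriched peaks, 7.09% of their 381, where 2.22% of all peaks were enriched. They carried 26 depleted peaks (6.82%), where 5.44% of all peaks were depleted. Enriched peaks lay in 11 of the 87 genes (12.6%, against 5.04% of all gene names), and depleted peaks in 13 (14.9%, against 17.3%). Rbm33 and Rbm39 had both kinds, and 65 genes had no called peak. Per the authors' deposited table, log2 fold changes of the 381 peaks had a median of -0.59, compared with -1.06 over all peaks. Centred on the latter, the members' median turns to 0.47. Values below 0 made up 66.7% of the members' peaks and 76.2% of all peaks.

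Cdk11b and Ythdc1 together held 15 of the 27 enriched peaks. Without them, 12 of 364 peaks (3.30%) were enriched, in 9 of 85 genes (10.6%), and the median was -0.64 (log2 scale, authors' deposited table). None of the 26 depleted peaks was theirs. Rbm10 held 7 of the 26, and without it 19 of 374 peaks (5.08%) were depleted, close to the 5.44% of all peaks. Another 7 genes had a single enriched peak each. Peaks were not independent of each other, since 185 of the 381 touched a neighbouring peak of the same set, among them 13 of the 27 enriched ones.

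**Figure D1:**
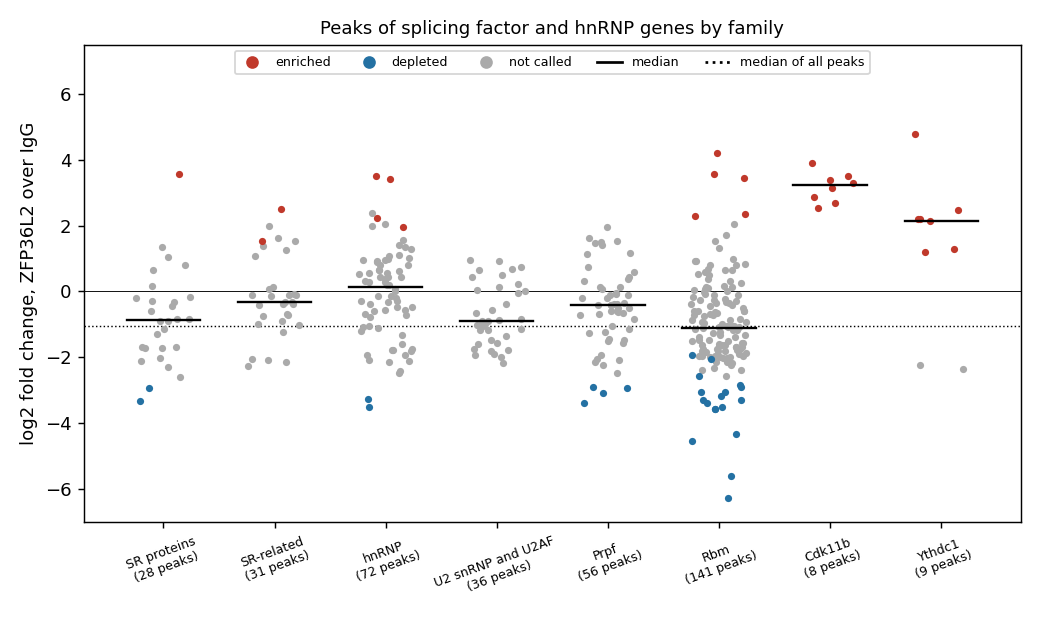
Log2 fold change of ZFP36L2 over IgG for every peak of the 8 families, 1 point per peak, coloured by call, with the family median as a bar and the median of all peaks (-1.06) as a dotted line. The 8 Cdk11b peaks and 7 of 9 Ythdc1 peaks stand in the enriched class, whereas 18 of the 26 depleted peaks belong to the Rbm family.

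Cdk11b, a cyclin-dependent kinase that acts on the splicing factor Sf3b1 during activation of the spliceosome, was enriched in 8 of its 8 peaks. All 8 were coding and fell in 3 groups between 54.6% and 63.4% of the way along the gene. The first group, 3 peaks within 104 nucleotides from 155638529 to 155638632 of chromosome 4 (build mm10), stood at 2.7, 3.90 and 3.40 on the log2 scale of the authors' deposited table. The second, 4 touching peaks that filled the 54 nucleotides from 155639889 to 155639942, stood at 3.51, 3.15, 3.30 and 2.86 (authors' deposited table), with adjusted p-values between 6.5e-42 and 1.9e-24. These are the smallest adjusted p-values of any member. The last peak was 3 nucleotides long and had 2.53 (adjusted p = 7.4e-12, authors' deposited table). With touching peaks merged, 5 enriched stretches remained. Of the 2505 gene names with 7 or more peaks, 4 were enriched in all of them, Cdk11b among these.

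Ythdc1 encodes a nuclear reader of methylated adenosine in RNA that recruits SR proteins. It was enriched in 7 of 9 peaks, which merge into 3 stretches. The highest value among all members, 4.79 on the log2 scale (adjusted p = 2.6e-09, authors' deposited table), belonged to its peak in the 5′ UTR, 141 nucleotides long at 86804308 to 86804448 of chromosome 5. The other 6 enriched peaks were coding and lay within 259 nucleotides, from 86816984 to 86817242. Along this stretch the values in the authors' deposited table were 2.20, 2.13, 2.19 and 2.48 in the 4 touching peaks at its 5′ end and then 1.3 and 1.19, so the last pair stood lower than the first 4. All 6 passed the adjusted p, the weakest at 5.4e-04 in the authors' deposited table. The remaining peaks, both intronic and further 3′, had -2.24 and -2.36 and were not called (adjusted p = 0.47 and 0.32, authors' deposited table).

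**Figure D2:**
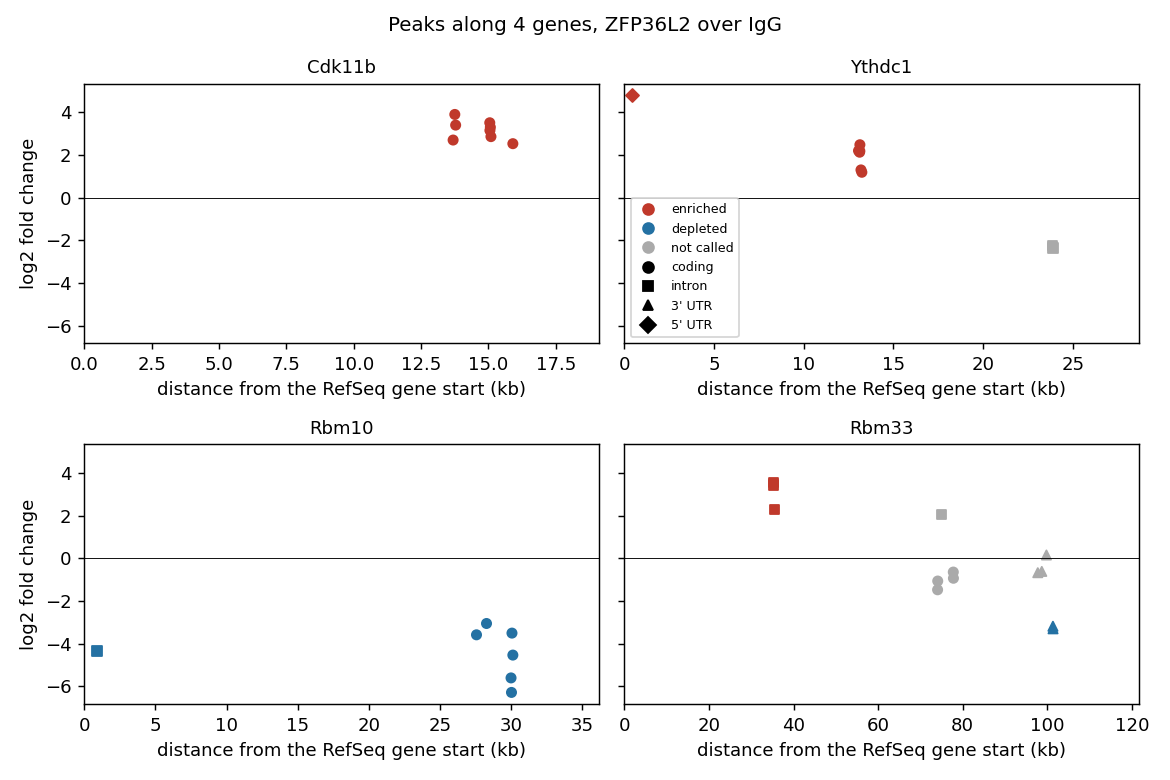
Log2 fold change of each peak against its distance from the RefSeq gene start in kilobases for Cdk11b, Ythdc1, Rbm10 and Rbm33, with colours for the call and symbols for the transcript region. Enriched peaks of Cdk11b and Ythdc1 gather in short coding stretches, apart from the 5′ UTR peak of Ythdc1, all 7 peaks of Rbm10 lie below -3, and Rbm33 has enriched intronic peaks and depleted 3′ UTR peaks.

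Among the SR proteins, 1 of 28 peaks was enriched (3.57%, against 2.22% of all peaks) and 2 were depleted (7.14%, against 5.44%), both near the shares in the whole table, in 11 genes whose peaks had a median of -0.87 (log2, authors' deposited table). The enriched one was the sole peak of Srsf3, a small SR protein that also acts in mRNA export. It lay in the 5′ UTR at 29032688 to 29032763 of chromosome 17, beginning at base 29 of the transcript from the RefSeq start site, and stood at 3.58 on the log2 scale (adjusted p = 9.5e-04, authors' deposited table). This is the only called peak of the set whose letters were fully covered by the RefSeq promoter windows used here (build GRCm38.p6, the same as mm10). Its first 30 bases on the transcribed strand, all in lower case because no motif is marked, show what the recovered site reads.

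Srsf3 5′ UTR peak, chr17:29032688-29032717, plus strand: cgcgagaccgagaatctgtaggagcagaac

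The whole peak of 76 nucleotides was 59.2% G or C, against a median of 52.6% over stretches of the same length in 32817 RefSeq promoter windows. The window of Srsf3 itself held only 22 of the bases, so the place of the stretches was taken from another window that held the whole peak. The stretches therefore include promoter sequence upstream of a start site and are not matched 5′ UTRs. It held no match on either strand to ATTTA, the core pentamer of AU-rich elements, to TATTTAT, a longer form that contains ATTTA, or to GAAGAA, a purine-rich exonic motif. These motifs occurred in 10.6%, 1.32% and 5.82% of the comparison stretches. The search says only that these letters are not in this window.

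The depleted SR protein peaks were in the 3′ UTR of Srsf2 (-3.34, adjusted p = 3.5e-03) and in an intron of Tra2b (-2.94, adjusted p = 0.033), per the authors' deposited table. Srsf2 recognises exonic enhancers, and its protein controls a decay-prone form of its own mRNA. Its other peak, intronic, had 0.66 and was not called. Tra2b, which binds purine-rich exonic enhancers, had 5 peaks with values from -2.94 to -0.91 in the authors' deposited table. Its close relative Tra2a had 3 peaks between -0.89 and -0.44, none called. In the other SR genes no peak was called. Srsf7 had 1.05 and 1.36 and Srsf5 had 0.79, while Srsf4, Srsf6, Srsf10 and Srsf11 had only values below 0, down to -2.59 in Srsf10, per the authors' deposited table. All 5 peaks of Srsf9 were coding, from -1.3 to 0.16.

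SR-related genes had 2 enriched peaks and none depleted among 31, where 2.22% and 5.44% of all peaks were called. Luc7l, whose yeast counterpart is part of the U1 snRNP, was enriched in an intron at 26257464 to 26257522 of chromosome 17 (2.52, adjusted p = 0.013, authors' deposited table). Its 3′ UTR peaks had 1.63, 1.52 and -2.04 and were not called. The relatives Luc7l2 and Luc7l3 had 3 and 7 peaks, with values from -1.22 to 0.07 and from -0.98 to -0.07 in the authors' deposited table. Srrm2, a scaffold of nuclear speckles, had an intronic peak just inside the threshold (1.52, adjusted p = 0.046, authors' deposited table) and a coding peak that was not called (1.39). Son, the other speckle scaffold, had a 5-nucleotide intronic peak just outside it (1.99, adjusted p = 0.054, authors' deposited table), and its other 5 peaks lay between -2.15 and 1.08. Srrm1, a splicing coactivator, had 7 intronic peaks from -0.73 to 1.26 with no call in the authors' deposited table.

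Among the large families of the set, hnRNP genes were the one with a median above 0, at 0.15 over 72 peaks in the authors' deposited table; relative to the median of all peaks, -1.06, the other families except Rbm also stood higher. Enriched peaks numbered 4 (5.56%, against 2.22% of all peaks), in Hnrnpl, Hnrnpul1 and Hnrnph1, and depleted peaks 2 (2.78%, against 5.44%), both in Hnrnph3. Hnrnpl, which binds CA repeats, was enriched in 2 intronic peaks, at 28815459 to 28815556 and 28816092 to 28816140 of chromosome 7. These stood at 1.97 (adjusted p = 1.2e-05) and 3.41 (adjusted p = 2.1e-08), per the authors' deposited table. The other 3 Hnrnpl peaks lay between -0.70 and 0.21, and the single peak of its paralogue Hnrnpll had -0.59, per the authors' deposited table.

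Hnrnpul1, an RNA- and DNA-binding protein of the DNA damage response, had 15 peaks and 1 call. That peak was coding, at 25733244 to 25733314 of chromosome 7, and stood at 3.52 (adjusted p = 4.8e-06, authors' deposited table). The other 14 ranged from -1.60 to 1.1, and the nearest coding peaks, next to it on its 3′ side, had 0.54 and 0.90 without a call (authors' deposited table). Its relative Hnrnpul2 had 10 peaks, the lowest at -1.92, with no call.

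Among the Hnrnph genes, whose proteins bind runs of G, single peaks were called in both directions. Hnrnph1 was enriched in 1 of 4 peaks, a coding one of 38 nucleotides (2.23, adjusted p = 0.030, authors' deposited table). The peak touching it had 0.56, and the others had 0.64 and -0.55, none called. Hnrnph3 was depleted in touching peaks on either side of the border between its 5′ UTR and coding sequence, at 63019478 to 63019539 of chromosome 10. These had -3.51 (adjusted p = 2.6e-04) in coding sequence and -3.27 (adjusted p = 0.012) in the 5′ UTR, per the authors' deposited table. Hnrnph2 and Hnrnpf had values from -0.79 to 0.30, none called. The difference between these genes was not tested. Paralogues share sequence, and the handling of reads that match several copies was not given in the sources used here.

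Other well-known hnRNP genes had 1 to 6 peaks each. Hnrnpa1 had 1, at -1.05, and Hnrnpu 1, at 0.44, in the authors' deposited table. Hnrnpc, which binds U tracts, had 3 intronic peaks from -2.10 to 0.37, and Hnrnpk, which binds C-rich RNA, had 4 from -2.43 to -0.46. Hnrnpm, a splicing repressor, had 6 peaks, all above 0 (0.55 to 2.39), and the smallest adjusted p among them was 0.13 in the authors' deposited table. Hnrnpr had 6 peaks, all below 0 (-2.48 to -1.20), and the smallest adjusted p was 0.10. No peak of these genes was called. The 4 peaks of Hnrnpr labelled 3′ UTR lay outside the RefSeq span of the gene.

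**Figure D3:**
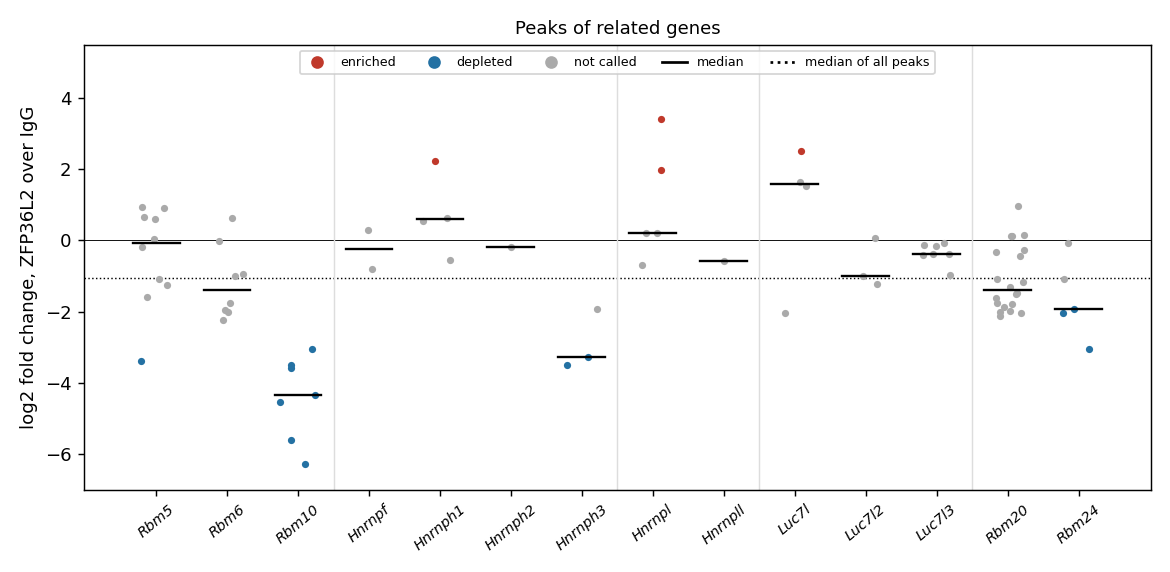
Log2 fold change of each peak in 5 sets of genes separated by grey lines, with the gene median as a bar and the median of all peaks (-1.06) as a dotted line. Within the Rbm5, Rbm6 and Rbm10 set all depleted peaks but 1 are in Rbm10, and Hnrnph1 and Hnrnph3 hold calls of opposite direction.

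The U2 and Prpf genes of the set held no enriched peak, where 2.22% of all peaks were enriched. Genes of the U2 snRNP and of U2AF, which recognise the branch point and the 3′ splice site, had 36 peaks in 9 genes and no call in either direction, with values from -2.16 to 0.96 in the authors' deposited table. Sf3b1, the largest subunit, had 5 peaks between -0.91 and 0.92, U2af1 had 5 between -1.91 and 0.75, and U2af2 had 3 between -1.78 and -0.87. The Prpf genes, named for yeast pre-mRNA processing mutants, had 4 depleted peaks among 56 (7.14%, against 5.44% of all peaks), in 3 of 11 genes. Prpf8, the protein at the heart of the spliceosome, had 17 peaks, of which 2 coding ones were depleted, at -2.90 (adjusted p = 0.015) and -2.94 (adjusted p = 9.8e-03), per the authors' deposited table. The peak that touches the first of these had -2.47 without a call, and the other 14 ranged from -2.23 to 1.95. An intronic peak of Prpf38a (-3.39, adjusted p = 0.019) and a 3′ UTR peak of Prpf4 (-3.08, adjusted p = 0.035) completed the group in the authors' deposited table.

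The Rbm family held 18 of the 26 depleted peaks (12.8% of its 141, against 5.44% of all peaks), 7 of them in Rbm10. They lay in 7 of its 28 genes (25.0%, against 17.3% of all gene names). Its 5 enriched peaks (3.55%, against 2.22%) were in 3 genes. Rbm10, an X-linked regulator that mainly causes exon skipping, was depleted in 7 of 7 peaks. The highest of them was -3.05 and the lowest -6.28 (adjusted p = 1.7e-14, authors' deposited table). An intronic peak near the start of the gene had -4.33, and 4 coding peaks between 20647327 and 20647495 of chromosome X had -5.60, -6.28, -3.50 and -4.53. Of the 2505 gene names with 7 or more peaks, 6 were depleted in all of them, Rbm10 among these. The cutoff of 7, also used for Cdk11b above, equals the peak count of Rbm10. The related genes Rbm5 and Rbm6, which lie side by side on chromosome 9, differed from this in the authors' deposited table. Rbm5 was depleted in 1 of 10 peaks, in its 3′ UTR (-3.38, adjusted p = 6.3e-03), with 5 peaks above 0, and Rbm6 in none of 8 (-2.24 to 0.64). The difference between the genes was not tested, since no error is given for a fold change.

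Rbm33, a partner of the RNA demethylase ALKBH5, had calls in both directions. In an intron about 34.4% of the way along the gene, 3 peaks between 28352038 and 28352309 of chromosome 5 were enriched at 3.57, 3.44 and 2.29 in the authors' deposited table. At the far end of the 3′ UTR, touching peaks from 28418170 to 28418219 were depleted at -3.18 and -3.30. Its other 8 peaks were not called. Rbm39, a splicing factor related to U2AF, also had both, in introns. An intronic peak 3.81% of the way along the gene was enriched (2.36, adjusted p = 1.1e-04), and an intronic peak at 84.1% was depleted (-2.90, adjusted p = 0.014), per the authors' deposited table. The enriched peak of Rbm8a2, labelled coding in the table although RefSeq lists a pseudogene, covered 92 nucleotides (4.22, adjusted p = 2.7e-18, authors' deposited table). Rbm8a, the gene that encodes the exon junction core protein Y14 and resembles this pseudogene, had no peak. How reads were assigned between the pair was not tested.

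Rbm47, a cofactor of RNA editing by APOBEC1, was depleted in 3 of 20 peaks, with -3.29 in coding sequence and -2.58 and -2.85 in touching intronic peaks in the authors' deposited table. Rbm34 was depleted in 1 of 3 peaks, an intronic one at -3.57 (adjusted p = 1.2e-03, authors' deposited table). Rbm24 and Rbm20 are known as splicing regulators of heart and skeletal muscle, and Rbm20 acts on titin. Rbm24 was depleted in both 5′ UTR peaks (-3.04 and -1.93) and in an intronic peak (-2.05) in the authors' deposited table, while its coding peak (-1.08) and 3′ UTR peak (-0.08) were not called. Centred on the median of all peaks, with the deposited adjusted p left unchanged, the first of these alone stayed depleted. Rbm20 had 20 peaks, 13 of them coding, with values from -2.11 to 0.98 and no call. Their transcripts stand beside the cardiac muscle markers given above, of whose 848 peaks 40 were enriched (4.72%) and 2 depleted (0.236%), where 2.22% and 5.44% of all peaks were. Ttn held 18 of these 40 enriched peaks and Ryr2 12. Among Leydig markers 35 of 98 peaks were enriched and 2 depleted. Of the 35, 33 were intronic peaks of Cyp11a1, and Lhcgr and Prlr had 1 each. Star and Nr5a1 had no call, and Gata4 and Nr2f2 had 1 depleted peak each. Among Sertoli markers 2 of 13 peaks were enriched and none depleted, and among macrophage markers 2 of 33 and 1. The part of such transcripts in the Rbm20 and Rbm24 values was not tested.

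By transcript region, coding peaks made up 17 of the 27 enriched ones (63.0%, Wilson 95% interval 44.2 to 78.5, which covers counting only and treats peaks as independent), where coding sequence held 39.2% of all enriched peaks in the table. Of the members' 159 coding peaks, 10.7% were enriched, where 2.35% of all coding peaks were. This share came from the same pair of genes: without Cdk11b and Ythdc1, 3 of 145 coding peaks (2.07%) were enriched, those of Hnrnph1, Hnrnpul1 and the pseudogene Rbm8a2, and coding peaks were 25.0% of the enriched ones. Introns held 8 enriched peaks of 164 (4.88%, against 2.17% of all intronic peaks), and these lay in Hnrnpl, Luc7l, Srrm2, Rbm33 and Rbm39. The 5′ UTR held 2 of 12, in Ythdc1 and Srsf3 (3.18% of all 5′ UTR peaks were enriched). No 3′ UTR peak of the members was enriched among 45 in 26 genes, where 1.46% of all 3′ UTR peaks were. At a 95% level and with peaks treated as independent, this allows a share of up to 6.67%. Several of the 45 touch each other, so the true limit may be higher. The 45 include 4 peaks of Hnrnpr that lay outside the RefSeq span of that gene.

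Depleted peaks of the members were spread over regions. They numbered 10 in coding sequence (6.29%, against 3.74% of all coding peaks), 8 in introns (4.88%, against 7.04%), 5 in 3′ UTRs (11.1%, against 4.83%) and 3 in 5′ UTRs of 12 (against 5.78%). Rbm10 alone gave 6 of the 10 coding ones, so the coding share depends largely on this gene. The 5 in 3′ UTRs include the 2 touching peaks of Rbm33. The median length was 29 nucleotides for enriched and 43 for depleted peaks of the members, where the medians over the table were 46 and 33. All 8 enriched peaks of Cdk11b were 3 to 28 nucleotides long, and the shortest of Ythdc1 was 3. The members' median for enriched peaks therefore rests in part on these genes, and it was not computed without them.

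**Figure D4:**
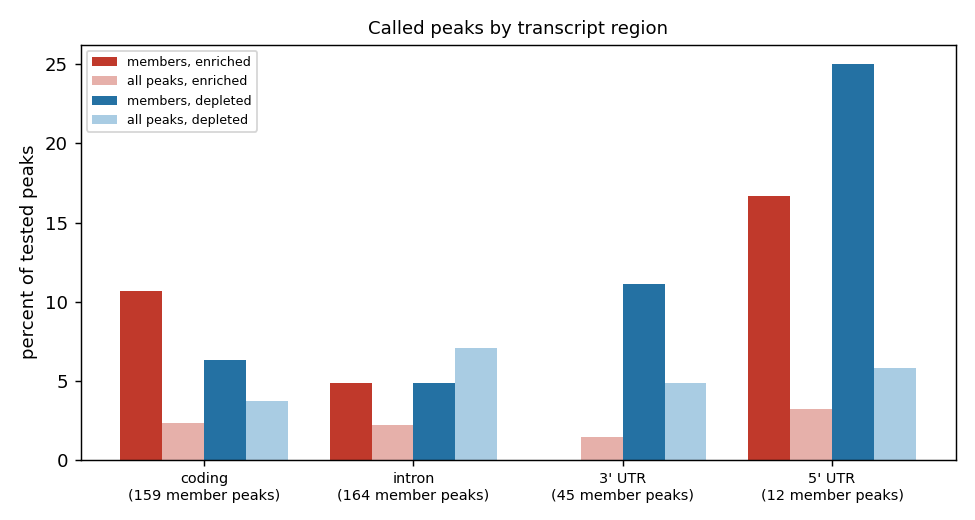
Percent of tested peaks called enriched or depleted in each transcript region, for the members' peaks (dark bars) and for all peaks of that region (light bars). Member coding peaks were enriched in 10.7% of cases against 2.35% of all coding peaks. Without Cdk11b and Ythdc1 the members' share was 2.07% (3 of 145 coding peaks). No member 3′ UTR peak was enriched among 45, where 1.46% of all 3′ UTR peaks were.

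A list of 161 other splicing genes gave a wider view of the pathway. Peaks were found for 125 of them, 673 in number, with a median of -0.49 (log2, authors' deposited table). Enriched peaks lay in 17 of the 125 genes (13.6%) and depleted peaks in 22 (17.6%), where 5.04% and 17.3% of all gene names had them. By role, enriched peaks occurred in 8 of 52 core snRNP and spliceosome genes, 7 of 43 other splicing regulators, 2 of 23 SR-related regulators and none of 7 kinases of SR proteins, and depleted peaks in 9, 6, 6 and 1. The strongest by adjusted p was Safb2, a scaffold attachment factor, enriched in 3 of 3 peaks up to 5.21 (adjusted p = 1.9e-29, authors' deposited table). That highest peak covered only positions 56584274 to 56584275 of chromosome 17, and the other Safb2 peaks stood at 1.96 and 2.97. Ddx23, a helicase of the tri-snRNP, was enriched in its 5′ UTR (4.98, adjusted p = 2.6e-16, authors' deposited table). Coding peaks of Taf15 (5.02), of Casc3, an exon junction component (5.48), and of Cwc27, a spliceosomal cyclophilin (3.96), were enriched in the authors' deposited table. Intronic ones were found in Rsrc1 (2 of 21 peaks, up to 4.25), in Mbnl2, a muscleblind splicing regulator (5 of 20, up to 3.57), and in Pspc1, a paraspeckle protein (1 of 12, 2.82). Depleted members of the list included Sart3, a recycling factor of the U6 snRNP (2 of 4 peaks, down to -4.46, adjusted p = 1.2e-09 at best), and Sart1, a tri-snRNP protein (3 of 6, down to -3.88), per the authors' deposited table. Khdrbs1, also known as Sam68, was depleted in 2 of 11 peaks, down to -3.94, and Isy1, a catalytic-stage factor, in its sole peak, at -3.66, in the authors' deposited table. The called peaks of Rsrc1 touch each other, as do those of Sart3, 2 of the 5 of Mbnl2 and 2 of the 3 of Sart1.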

How the data were processed

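Libraries were 2 ZFP36L2 IPs, 1 IgG IP and their inputs. Per the submitters' processing notes, UMI-tools 1.1.1, cutadapt 3.2, STAR 2.7.7a, DESeq2 1.34.0 and build mm10 were used, with no role or order given; peak calling, pooling, normalization and the role of the inputs were not given in the sources used here. Each row of the deposited table is 1 peak with a log2 fold change from the authors, taken as ZFP36L2 over IgG from the table's name. The authors gave each p-value and adjusted p-value as its −log10, which was turned back. Nothing says that libraries came from separate cultures, so the spread behind the p-values may be technical.

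No test was added: counts were made in Python 3.11.15 with pandas 2.3.3. The name rule, the calling and the merging of touching peaks were tried on 1 simulated table with planted calls, and every checked count matched. The region, marker and sequence steps were not tried in this way. A peak with several gene names (1 among the members) counted for each. Positions along genes and gene names used RefSeq GRCm38.p6; all 87 names matched. Members, lists and thresholds were chosen with earlier results of these data known. Named genes were all members with an enriched peak, the 10 with the most depleted peaks, the 5 with the most peaks, a set of well-known members, and of the other splicing genes the 8 enriched and 4 depleted with the smallest adjusted p. Other names were added after their values were seen. Alternatives were an adjusted p under 0.01, a log2 fold change of 2, centring, peaks with 1 name, merged touching peaks, and leaving out genes.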

Additional observations from a re-analysis of the deposited data

How the results depend on the processing

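The counts of enriched peaks, of genes with an enriched peak and of other splicing genes with one stayed within 1.5 times of the reported counts at an adjusted p under 0.01, at a log2 fold change of 2 and with touching peaks merged. Centring and the limit to 1 gene name could not lower the members' enriched counts, since centring adds to every fold change and the 1 peak with several names was not called. Centring changed the fold change only, and the deposited adjusted p was kept, so centred calls are not tests against the new centre. Leaving out Cdk11b and Ythdc1, like leaving out Rbm10 a choice made after seeing the data, left 12 enriched peaks, and coding peaks were then 25.0% of them. Depleted peaks numbered 16 at an adjusted p under 0.01 and 8, in 6 genes, without the Rbm genes. The median log2 fold change of the members turned from -0.59 to 0.47 when all values were centred on the median of all peaks, so its sign depends on the centring. It was -0.585 for peaks with 1 gene name, -0.55 with touching peaks merged, -0.60 without Cdk11b, -0.345 without the Rbm genes and -0.635 without Cdk11b and Ythdc1. At an adjusted p under 0.01, Hnrnph1, Luc7l and Srrm2 lost their enriched peak and Prpf38a, Prpf4, Rbm39 and Tra2b their depleted one; Srrm2 also lost it at a log2 fold change of 2. Depth is unknown. No paired analysis was possible because the table holds no values of single libraries, and no library could be left out for the same reason.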

Other observations

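Among the other splicing genes, a few that the rule for named genes did not choose also carried calls and are given as values, picked after they were seen. Safb, the neighbour and paralogue of Safb2 on chromosome 17, was enriched in 1 of 2 peaks, a coding one at 3.48 (adjusted p = 4.7e-06, authors' deposited table). Sfpq, a splicing factor of paraspeckles, was enriched in both of its peaks, an intronic one at 2.65 and a coding one at 2.41 in the authors' deposited table. Slu7, which acts in the second step of splicing, had a coding peak at 3.78, and Sf1, the branch point binding protein, an intronic one at 2.66, per the authors' deposited table. Dhx8, the helicase that releases spliced mRNA, had coding peaks in both directions, at 4.03 and -3.43 in the authors' deposited table. Srek1 had enriched intronic peaks at 2.0 and 2.27 and a depleted 3′ UTR peak at -3.01, per the authors' deposited table. Cherp was depleted in 3 of 5 peaks, Elavl1, the AU-rich element binding protein HuR, in 2 of 6, and Ptbp2, a neuronal splicing repressor, in 2 of 5. The depleted peaks of Elavl1 touch each other, as do those of Ptbp2, the enriched ones of Srek1 and 2 of the 3 of Cherp. Over the whole series, 2.22% of peaks were enriched and 5.44% depleted.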
